A study of Mus musculus with 6 samples.

Results

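Of 12722 genes measured in mouse macrophages given PBS, 5 µM KN93 or 10 µM KN93, 166 peaked at the middle condition, 5 µM, by a set margin. A gene counted as measured with at least 1 FPKM (fragments per kilobase of exon and per 1000000 fragments) in at least 2 of the 6 samples, out of 54446 entries in the table. The 166 were chosen on log2(FPKM + 1): their mean at 5 µM exceeded the mean with PBS and the mean at 10 µM by at least 0.25 each, and the lower 5 µM sample lay above all 4 samples of the other groups. Those 2 differences are the choice itself, so they are given below as a description with no test. The step the choice did not name, 10 µM against PBS, was tested with limma, although a gene that must lie below its 5 µM level in both groups has limited room to differ between them.

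The cells were bone marrow-derived macrophages from C57BL/6 mice whose labelled age was 6 weeks, with 2 samples given PBS, 2 given KN93 at 5 µM and 2 given KN93 at 10 µM. Each sample was profiled by RNA sequencing of total RNA. The labels give neither the time of treatment nor whether cells of different mice or cultures were used within a group. A p-value here therefore reflects the spread of 2 samples per group that may be technical repeats. The column names share a prefix, DXM, that no label explains.

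KN93 is a small molecule that keeps calmodulin from activating calcium/calmodulin-dependent protein kinase II and its relative CaMKIV. Macrophages grown from marrow engulf dead cells and microbes, degrade them in lysosomes that a proton pump keeps acidic, and pass the lipids on through sterol-sensing nuclear receptors. They also present peptides on class I and class II molecules and carry receptors for dying cells and for microbial sugars.

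The library totals implied by the FPKM values ran, in units of 1000000 fragments, from 24.2 to 28.4, and the recovered fragments were used to judge how much data stands behind a value. All 9 macrophage markers were measured, with summed levels of 18558 and 18045 FPKM with PBS, 14834 and 14372 FPKM at 5 µM, and 8313 and 9155 FPKM at 10 µM. Only Mertk among them belonged to the 166. The summed stromal markers stood at 1998 and 1954 FPKM with PBS, 647 and 535 FPKM at 5 µM, and 398 and 379 FPKM at 10 µM, with 9 of 10 measured, and the neutrophil markers at 115 and 115, 37.1 and 42.7, and 5.22 and 7.31 FPKM in the same order of groups, with 5 of 9 measured. Markers of dendritic cells and of T and NK cells summed to less than 1 FPKM in every sample, and Cd3d was at 0. B cell markers, with 1 of 5 measured, summed to 7.90 and 7.91 FPKM with PBS, 3.60 and 3.75 FPKM at 5 µM, and 1.48 and 1.82 FPKM at 10 µM. Megakaryocyte and erythroid markers, with 2 of 6 measured, summed to 923 and 1030.5 FPKM with PBS, 393 and 309 FPKM at 5 µM, and 120.01 and 121 FPKM at 10 µM. Pf4 alone made up 99.0% of that sum with PBS, and without it 8.20 and 10.9 FPKM remained. Cd79b alone made up 98.7% of the B cell sum with PBS. The stromal and neutrophil sums were lower at 5 µM than with PBS and lower again at 10 µM. Lyz2 alone made up 83.2% of the macrophage sum with PBS, and without it the sum was 3158 and 2994 FPKM with PBS, 3112 and 3159 FPKM at 5 µM, and 2464 and 2587 FPKM at 10 µM. Cd68 went the other way, with 842 and 861 FPKM with PBS, 1532 and 1508 FPKM at 5 µM, and 1396 and 1511 FPKM at 10 µM. The part of these markers in the results was not tested. In bulk RNA, fewer cells of a type and less RNA per cell cannot be told apart.

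The differences behind the choice were mostly small. The median of the 166 was 0.42 above PBS and 0.41 above 10 µM on the log2(FPKM + 1) scale, where 11 genes were at least 1 above PBS, 29 were at least 0.5 above both groups and 3 were at least 1 above both. The mirror pattern, lowest at 5 µM by the same limits, held 177 genes. At the limit on the difference, Tmem160, AC166110.3 and Adcy9 lay just inside with smaller differences between 0.2503 and 0.2511, and Cd1d1, Lair1 and Man2b2 just outside with 0.2496 to 0.2497. At the limit on separation, Gm13609, 1700016B15Rik and Mir199a-1 lay inside with their lower 5 µM sample at most 0.0161 above the highest other sample, and Gm44287, Fads2 and Coa6 lay outside, with margins of -0.0038 to -0.0104. A further 68 genes passed both differences but had overlapping samples. Without the margin of 0.25, 869 genes had both 5 µM samples above all 4 others. Of the 166, 8 passed the filter on low values through the 5 µM samples alone.

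Across all 166, 31 were called at 10 µM against PBS (18.7%), against 50.5% of all measured genes. Of these 17 rose (10.2%, against 28.5% of measured genes) and 14 fell (8.43%, against 22.0%), and 135 were not called. Because the choice bounds this difference, nothing is read from these shares. With median-of-ratios scaling, the median of all measured genes was 0.001 instead of 0.05. The split among the 166 was then 11 higher and 19 lower. Among all 12722 measured genes, the same scaling gave 2955 higher and 3219 lower, against 3631 and 2796 without it. Both 10 µM samples lay above both PBS samples for 30 members (44.2% of measured genes did so) and below them for 32 (32.6% of measured genes). The protein-coding members split into 7 that rose, 10 that fell and 60 not called.

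**Figure D1:**
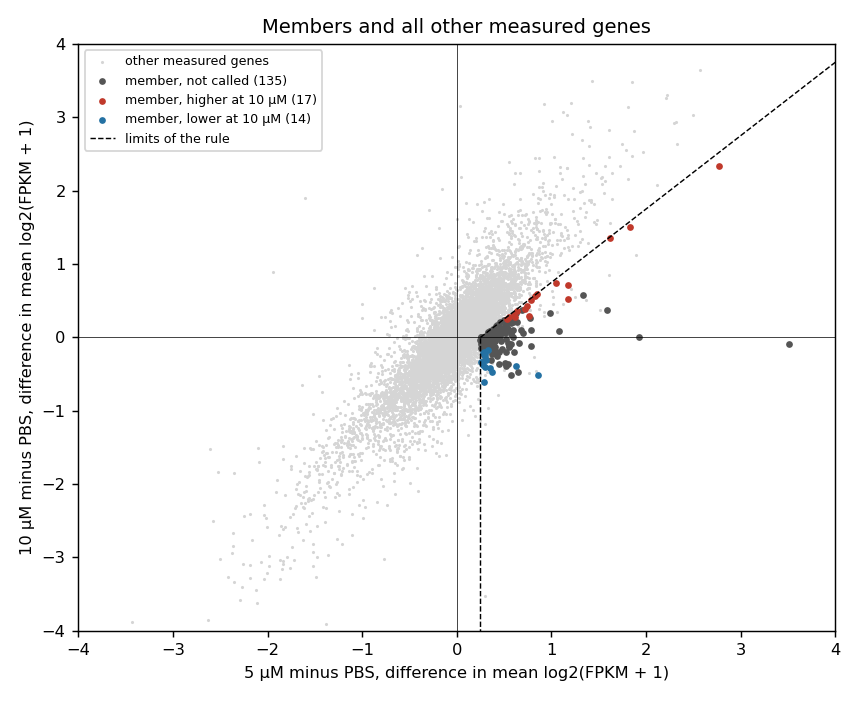
Difference of 10 µM from PBS (vertical axis) against difference of 5 µM from PBS (horizontal axis), each in mean log2(FPKM + 1), for all measured genes except 7 beyond the axes. The 166 genes lie to the right of and below the dashed limits of the rule, 17 called higher (red), 14 called lower (blue) and 135 not called (dark grey) at 10 µM against PBS.

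By annotated kind the set differed from the measured genes. Protein-coding genes made up 77 of the 166 (46.4%), against 83.4% of all measured genes, and pseudogenes 37 (22.3%), against 6.97%. Short RNAs numbered 18 (10.8%), against 2.5%, and long noncoding or unclassified genes 34 (20.5%), against 7.07%. The mirror set had nearly the same shares of pseudogenes (21.5%) and short RNAs (10.2%), while antisense genes held 15.1% of the 166, 3.95% of the mirror set and 3.55% of the measured genes.

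**Figure D2:**
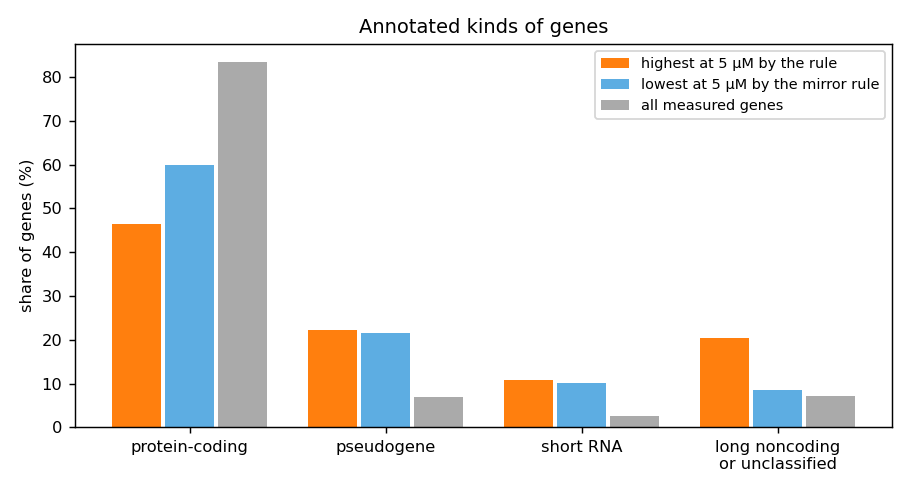
Share of genes (%) by annotated kind among the 166 genes that met the rule, the 177 that met its mirror and all 12722 measured genes. Protein-coding genes hold 46.4%, 59.9% and 83.4% of the sets, and the other 3 kinds hold more of the 166 than of the measured genes.

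The kinds also differed in the data behind them. A protein-coding member had a median of 887 recovered fragments per sample, a pseudogene 44.8, a long noncoding gene 71.5 and a short RNA 4.42. Fewer than 20 fragments in each 5 µM sample were found for 20 members, 15 of them short RNAs and none of them protein-coding. Most of the larger differences lay outside the protein-coding kind: 25 of the 29 genes at least 0.5 above both other groups were not protein-coding. Not all of them had few fragments, as Clec7a had 9767 and 10356 at 5 µM.

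**Figure D3:**
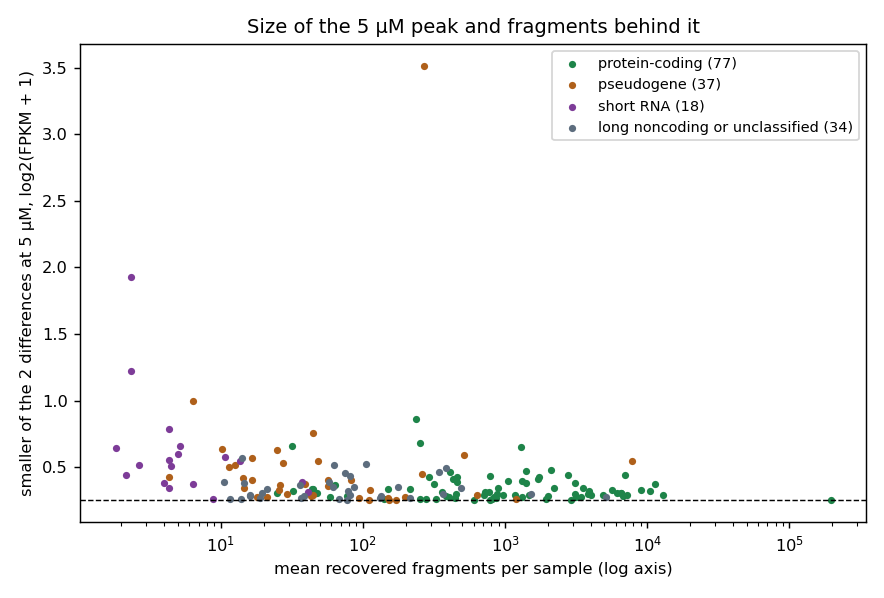
Smaller of the 2 differences at 5 µM, in mean log2(FPKM + 1) (vertical axis), against mean recovered fragments per sample (horizontal log axis) for the 166 genes, coloured by kind, with a dashed line at the limit of 0.25. Short RNAs lie at the left with few fragments, and the protein-coding genes lie mostly to their right with smaller differences.

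Genes for taking up dead cells came first in the list of Fc receptors, complement and phagocytosis, where 3 of 21 measured genes met the rule: Gas6, Mertk and Itgax. In 4 more, Cfb, Itgb2, Trem2 and Tyrobp, both 5 µM samples lay above all others by less than the margin. Gas6 is the secreted bridge between phosphatidylserine on a dying cell and the TAM receptors, and Mertk is the TAM receptor through which macrophages engulf such cells. Gas6 stood at 72.2 and 76.2 FPKM with PBS, 89.3 and 92.9 FPKM at 5 µM, and 46.7 and 50.02 FPKM at 10 µM. Mertk stood at 53.1 and 56.3 FPKM with PBS, 64.4 and 71.1 FPKM at 5 µM, and 46.0 and 44.9 FPKM at 10 µM. In neither gene did any 2 groups overlap, and ligand and receptor had the same order of groups, 5 µM highest and 10 µM lowest. Itgax, the integrin chain CD11c of complement receptor 4, had 9.50 and 10.5 FPKM with PBS, 12.8 and 13.8 FPKM at 5 µM, and 8.11 and 9.92 FPKM at 10 µM, so its PBS and 10 µM samples overlapped.

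At 10 µM against PBS, Gas6 fell by 0.61 on the log2(FPKM + 1) scale (SE 0.06, adjusted p = 0.000561, limma), and it passed in all 15 alternatives tried. Mertk fell by 0.26 (SE 0.06, adjusted p = 0.0177, limma). Its call was lost without PBS replicate 2 or without either 10 µM sample, with adjusted p between 0.00473 and 0.0917 in limma over the alternatives. Itgax was 0.14 lower and was not called (adjusted p = 0.298, limma). In the whole phagocytosis list, 15 of 21 genes fell, 2 rose and 4 were not called, with a median of -0.45, against a median of 0.05 over all measured genes. The 2 that rose were Axl, by 0.41 (SE 0.06, adjusted p = 0.00333, limma), and Mfge8, by 0.28 (SE 0.07, adjusted p = 0.0189, limma). Axl was highest at 10 µM, with 168 and 154 FPKM, against 134 and 135 FPKM at 5 µM and 117 and 125 FPKM with PBS.

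The promoters of the ligand and its receptor are shown because both genes had the same order of groups. They come from RefSeq, build GRCm38.p6, and run from 250 bases before to 50 bases after the annotated start, with capitals marking the GC box GGGCGG on either strand. That of Gas6 lies at chr8:13494486-13494785 on the minus strand and that of Mertk at chr2:128698665-128698964 on the plus strand, and each is read 5′ to 3′ along its gene.
Gas6: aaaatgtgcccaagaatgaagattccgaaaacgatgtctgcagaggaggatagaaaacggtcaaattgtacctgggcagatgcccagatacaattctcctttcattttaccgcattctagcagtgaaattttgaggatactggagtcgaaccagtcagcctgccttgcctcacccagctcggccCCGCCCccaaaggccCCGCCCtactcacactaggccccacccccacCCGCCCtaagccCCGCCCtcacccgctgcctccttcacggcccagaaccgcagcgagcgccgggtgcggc
Mertk: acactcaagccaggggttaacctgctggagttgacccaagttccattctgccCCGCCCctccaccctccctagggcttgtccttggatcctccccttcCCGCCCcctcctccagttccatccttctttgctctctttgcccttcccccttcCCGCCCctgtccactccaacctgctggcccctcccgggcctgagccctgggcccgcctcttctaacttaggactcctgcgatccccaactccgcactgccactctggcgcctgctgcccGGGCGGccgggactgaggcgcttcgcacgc

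Both windows hold several GC boxes, a common motif: it was found in 61.4% of the 57 protein-coding members with a promoter window and in 66.1% of the 8417 such windows of all measured protein-coding genes. Gas6 overlaps another of the 166, Tmem255b, on the opposite strand. Tmem255b, a membrane protein gene, had 1.53 and 1.43 FPKM with PBS, 2.09 and 2.31 FPKM at 5 µM, and 0.707 and 0.869 FPKM at 10 µM, the same order at a far lower level, and fell by 0.47 at 10 µM against PBS (SE 0.09, adjusted p = 0.00777, limma). Whether strand was used in counting is not stated, and overlap was taken on whole gene spans, introns included. Whether the 2 genes share fragments was not tested.

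Surface receptors included the member with the most fragments outside the protein-coding kind. Clec7a encodes dectin-1, the receptor for fungal beta-glucan, although the annotation used here lists it as a polymorphic pseudogene. It had 89.4 and 104 FPKM with PBS, 141 and 142 FPKM at 5 µM, and 83.8 and 98.7 FPKM at 10 µM. The 5 µM samples stood clear of the rest and the other groups overlapped (10 µM against PBS -0.08, SE 0.10, adjusted p = 0.539, limma). It was the only one of 20 measured C-type lectin and scavenger receptors with both 5 µM samples above all others, while 16 of the 20 fell at 10 µM against PBS and the list's median was -1.0.

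Mcemp1, a small membrane protein first described in mast cells, had the largest smaller difference of all protein-coding members. Its level was 4.33 and 5.29 FPKM with PBS, 10.5 and 8.57 FPKM at 5 µM, and 2.77 and 3.40 FPKM at 10 µM. No groups overlapped, and 10 µM was lowest. Mcemp1 fell by 0.51 at 10 µM against PBS (SE 0.13, adjusted p = 0.0241, limma), a call lost without PBS replicate 2, without 10 µM replicate 1 and with no filter, where the highest adjusted p in limma was 0.11 and the lowest of all alternatives 0.017. Only 1 of 5 mast cell and basophil markers was measured, and their sum was 4.65 and 4.63 FPKM with PBS, 1.55 and 1.18 FPKM at 5 µM, and 1.57 and 1.26 FPKM at 10 µM.

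The promoters of Clec7a and Mcemp1 differ in their motifs, which is why they are set side by side. Capitals mark CCAAT and TATAAA on either strand in Clec7a (chr6:129472730-129473029, minus strand) and the AP-1 site TGANTCA in Mcemp1 (chr8:3665512-3665811, plus strand), both RefSeq, build GRCm38.p6.
Clec7a: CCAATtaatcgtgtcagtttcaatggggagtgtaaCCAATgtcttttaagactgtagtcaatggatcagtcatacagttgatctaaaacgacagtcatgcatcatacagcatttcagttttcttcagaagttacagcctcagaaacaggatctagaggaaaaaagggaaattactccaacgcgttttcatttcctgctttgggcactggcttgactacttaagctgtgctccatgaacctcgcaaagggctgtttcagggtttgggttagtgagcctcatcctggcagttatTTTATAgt
Mcemp1: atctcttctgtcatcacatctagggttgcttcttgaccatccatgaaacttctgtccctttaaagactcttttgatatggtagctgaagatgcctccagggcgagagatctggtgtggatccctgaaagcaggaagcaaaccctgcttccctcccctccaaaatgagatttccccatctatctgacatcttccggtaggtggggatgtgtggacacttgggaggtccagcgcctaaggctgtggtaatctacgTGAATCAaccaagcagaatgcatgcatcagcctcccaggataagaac

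Over the 57 protein-coding windows, the AP-1 site stood in 6 (10.5%), against 4.87% of all measured protein-coding windows, and CCAAT in 29.8%, against 38.8%. The E-box CACGTG was in 8.77%, against 10.8%, and the ETS core AGGAAGT in 12.3%, against 9.52%. The median GC content was 58.3%, against 61.0%. A match is only the presence of these letters in the window.

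Other genes of surface receptors and adhesion among the 166 were Bst1, Havcr2, Lpar5 and Parvg. Bst1 is CD157, an ADP-ribosyl cyclase anchored at the cell surface, and had 10.2 and 7.80 FPKM with PBS, 21.5 and 21.3 FPKM at 5 µM, and 13.1 and 13.3 FPKM at 10 µM. All 3 groups stood apart, with 10 µM between the others. Bst1 rose by 0.52 at 10 µM against PBS (SE 0.11, adjusted p = 0.0113, limma), a call lost only without 10 µM replicate 2, where the adjusted p was 0.0541 in limma (lowest over the alternatives 0.00192).

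Havcr2, the checkpoint receptor TIM-3, had 2.81 and 3.23 FPKM with PBS, 5.72 and 4.76 FPKM at 5 µM, and 3.19 and 4.13 FPKM at 10 µM, and its call at 10 µM against PBS was not made (0.21, adjusted p = 0.227, limma). Lpar5, a receptor for lysophosphatidic acid, had 9.42 and 9.43 FPKM with PBS, 10.9 and 12.5 FPKM at 5 µM, and 7.84 and 6.33 FPKM at 10 µM. It fell by 0.37 at 10 µM against PBS (SE 0.11, adjusted p = 0.0306, limma), a call lost with no filter, without either PBS sample and without 10 µM replicate 2. Parvg, gamma-parvin, which links integrins to actin in blood cells, had 21.3 and 24.2 FPKM with PBS, 33.5 and 30.7 FPKM at 5 µM, and 19.6 and 21.1 FPKM at 10 µM.

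**Figure D4:**
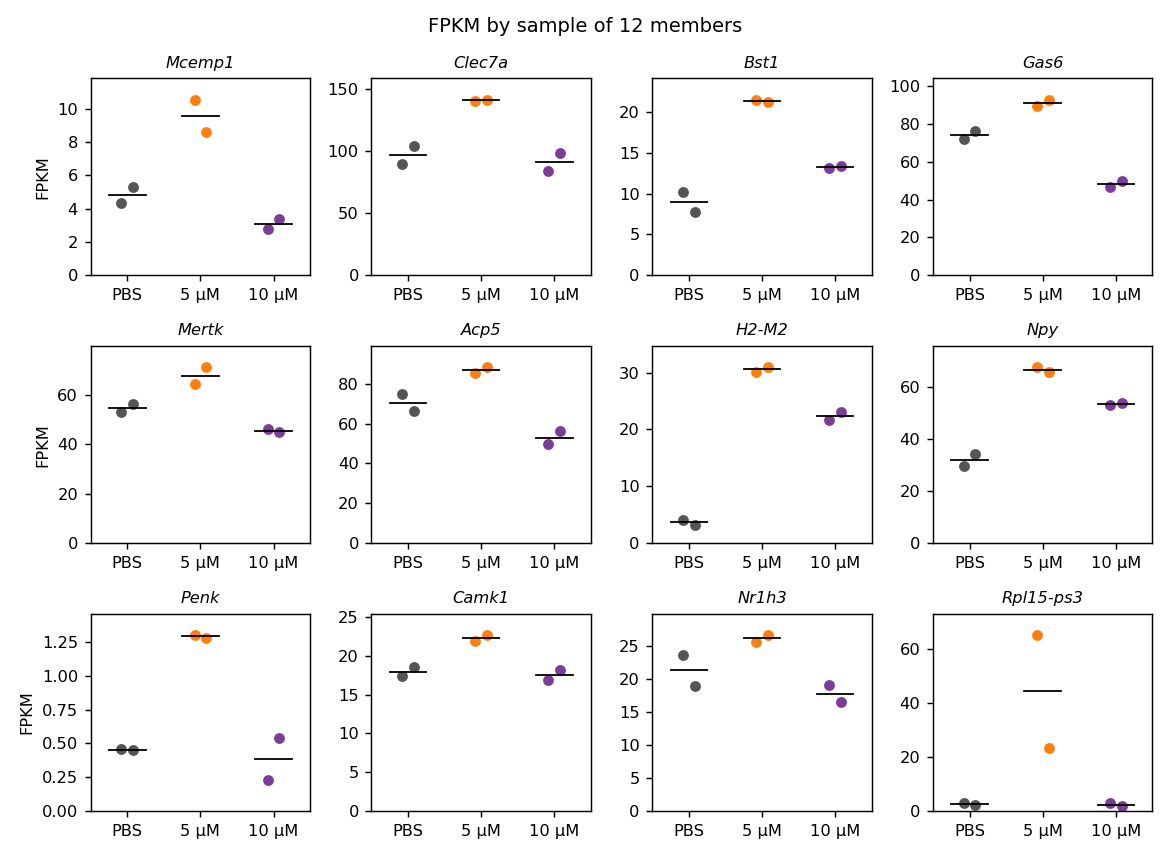
FPKM in each sample (points) with the group mean (bar) for 12 members, with PBS, 5 µM and 10 µM from left to right and each axis starting at 0. The 5 µM points lie above all others in each panel, with 10 µM below PBS in Gas6, Mertk, Acp5 and Mcemp1 and above it in Bst1, H2-M2 and Npy.

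A class I molecule, H2-M2, had the largest difference of any member between 10 µM and PBS. This nonclassical molecule had 4.07 and 3.19 FPKM with PBS, 30.2 and 30.9 FPKM at 5 µM, and 21.6 and 23.1 FPKM at 10 µM. Most of its difference from PBS was thus present at both doses, and it rose by 2.34 at 10 µM against PBS (SE 0.10, adjusted p = 4.56e-05, limma). Of the 21 measured class I genes, 19 rose at 10 µM against PBS, 1 fell and 1 was not called, with a median of 0.74. H2-M2 was the only one of them past the margin, and Calr had both 5 µM samples above all others by less.

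Npy, neuropeptide Y, had 29.5 and 34.2 FPKM with PBS, 67.7 and 66.0 FPKM at 5 µM, and 53.3 and 54.2 FPKM at 10 µM, and rose by 0.74 at 10 µM against PBS (SE 0.07, adjusted p = 0.000691, limma). H2-M2 and Npy passed in all 15 alternatives tried. Penk, the precursor of the enkephalin opioid peptides, stood near the limit of measurement, with 0.455 and 0.454 FPKM with PBS, 1.30 and 1.28 FPKM at 5 µM, and 0.228 and 0.539 FPKM at 10 µM. Those values rest on 56 and 58 fragments at 5 µM and at most 25 in any other sample, and Penk passed the filter on low values through the 5 µM samples alone.

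Ifi30 encodes the lysosomal thiol reductase GILT, which unfolds antigens for class II presentation. It had 188 and 186 FPKM with PBS, 227 and 227 FPKM at 5 µM, and 154 and 168 FPKM at 10 µM, without overlap between groups. Ifi30 fell by 0.22 at 10 µM against PBS (SE 0.06, adjusted p = 0.021, limma), while 8 of the 10 measured class II genes rose and 1, Ifi30 itself, fell. The call was lost with no filter, without either PBS sample and without 10 µM replicate 1, and the adjusted p in limma reached 0.0951. The annotation lists Ifi30 as a processed transcript, so it is not counted among the 77 protein-coding members. Another member, 6330537M06Rik, overlaps it on the opposite strand and had 2.82 and 3.65 FPKM at 5 µM against 1.95 and 1.91 FPKM with PBS.

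Lysosomal genes of the set were led by Ctsd, the aspartic protease cathepsin D and the member with the highest level. It had 2455 and 2672 FPKM with PBS, 3642 and 3593 FPKM at 5 µM, and 2799 and 3286 FPKM at 10 µM. The group at 10 µM lay above PBS without overlap, yet the difference of 0.24 was not called (SE 0.10, adjusted p = 0.0966, limma). Of 32 lysosomal genes only Ctsd met the rule, while 8 others, among them Ctsb, Grn, Lamp1 and Psap, had both 5 µM samples above all others by less than the margin, and 19 of the 32 rose at 10 µM against PBS, 8 fell and 5 were not called. Ctsh, the cysteine protease cathepsin H, had 102 and 102 FPKM with PBS, 122 and 128 FPKM at 5 µM, and 85.5 and 95.4 FPKM at 10 µM.

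Acp5, tartrate-resistant acid phosphatase and a marker of osteoclasts, had 74.9 and 66.3 FPKM with PBS, 85.2 and 88.3 FPKM at 5 µM, and 49.6 and 56.4 FPKM at 10 µM. No groups overlapped, and Acp5 fell by 0.41 at 10 µM against PBS (SE 0.09, adjusted p = 0.0109, limma). Without PBS replicate 1 the adjusted p was 0.0535 in limma (lowest over the alternatives 0.00187). The span of the locus 6530413G14Rik overlaps that of Acp5 on the opposite strand, and whether the 2 share fragments was not tested. This locus met the rule too and fell by 0.41 (adjusted p = 0.036, limma). That call was lost without either PBS sample, without 10 µM replicate 1 and with no filter. None of the other 7 measured osteoclast genes met the rule. Of all 8, 4 rose and 4 fell at 10 µM against PBS.

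Atp6v0a1, a subunit of the membrane part of the vacuolar proton pump, had 29.1 and 31.2 FPKM with PBS, 37.1 and 39.1 FPKM at 5 µM, and 28.7 and 27.5 FPKM at 10 µM. It was 0.10 lower at 10 µM than with PBS and not called (adjusted p = 0.204, limma), whereas 15 of the 17 measured pump genes rose and the list's median was 0.52. Igf2r, the receptor that carries hydrolases to lysosomes, stood at 54.0 and 56.4 FPKM at 5 µM against 38.2 and 38.6 FPKM with PBS. Lamtor4, a subunit of the Ragulator complex that anchors nutrient sensing on lysosomes, stood at 63.4 and 64.8 FPKM at 5 µM against 54.1 and 52.9 FPKM with PBS. Igf2r and Lamtor4 were chosen for mention after their values were seen.

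Sterol and fatty acid genes were represented by a receptor pair and 3 enzymes. Nr1h3, the oxysterol receptor LXR alpha, had 23.6 and 18.9 FPKM with PBS, 25.6 and 26.6 FPKM at 5 µM, and 19.1 and 16.4 FPKM at 10 µM. Rxra, the retinoid receptor that pairs with LXR, had 44.0 and 47.5 FPKM with PBS, 54.7 and 57.4 FPKM at 5 µM, and 45.8 and 43.9 FPKM at 10 µM. PBS and 10 µM overlapped in both genes, and neither was called (adjusted p = 0.138 for Nr1h3 and 0.734 for Rxra, limma). Nr1h3 was the only one of 10 measured LXR targets to meet the rule, Smpdl3a had both 5 µM samples above all others by less than the margin, and 7 of the 10 fell at 10 µM against PBS and 3 were not called, with a median of -0.76.

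Scd2, a stearoyl-CoA desaturase, had 10.3 and 9.82 FPKM with PBS, 15.6 and 13.7 FPKM at 5 µM, and 12.7 and 8.85 FPKM at 10 µM. Elovl6, which lengthens saturated fatty acids, had 1.03 and 1.15 FPKM with PBS, 1.76 and 1.53 FPKM at 5 µM, and 1.13 and 0.822 FPKM at 10 µM. These were 2 of 15 measured genes of fatty acid synthesis, of which 4 rose, 5 fell and 6, both of them included, were not called at 10 µM against PBS. Acat2, which makes acetoacetyl-CoA at the head of cholesterol synthesis, was the only one of 23 cholesterol genes to meet the rule, with 4.79 and 4.86 FPKM with PBS, 6.36 and 6.14 FPKM at 5 µM, and 5.24 and 4.25 FPKM at 10 µM. In that list 18 genes fell and Acat2 was not called (-0.02, adjusted p = 0.838, limma).

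In the mitochondrion, Sdhb, the iron-sulfur subunit of complex II, had 59.0 and 59.7 FPKM with PBS, 76.8 and 77.5 FPKM at 5 µM, and 60.1 and 65.8 FPKM at 10 µM. Cycs, cytochrome c, had 7.81 and 10.1 FPKM with PBS, 11.9 and 11.2 FPKM at 5 µM, and 8.19 and 8.66 FPKM at 10 µM, and was chosen for mention after its values were seen. Sdhb was 1 of 26 measured nuclear respiratory chain subunits of the list, of which 4 rose, 6 fell and 16 were not called at 10 µM against PBS. In 12 more of the 26, both 5 µM samples lay above all others by less than the margin. Sdf2l1, a partner of the ER chaperone BiP, was the only one of 22 ER chaperones to meet the rule, with 83.4 and 81.0 FPKM with PBS, 114 and 113 FPKM at 5 µM, and 81.1 and 85.8 FPKM at 10 µM. Its difference of 0.02 between 10 µM and PBS was not called (adjusted p = 0.74, limma), and 10 of the 22 rose and 3 fell.

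Signalling genes included 1 relative of the kinases that KN93 inhibits. Camk1, calcium/calmodulin-dependent kinase I, had 17.3 and 18.6 FPKM with PBS, 21.95 and 22.7 FPKM at 5 µM, and 16.9 and 18.2 FPKM at 10 µM, and was not called at 10 µM against PBS (-0.03, adjusted p = 0.705, limma). It was the only one of 29 measured genes of the calcium list to meet the rule, in which 7 rose, 10 fell and 12 were not called. Camk1 overlaps Ogg1 on the opposite strand. Inpp5j, a phosphatase that removes the 5-phosphate of inositol lipids, had 1.36 and 1.13 FPKM with PBS, 2.64 and 3.11 FPKM at 5 µM, and 1.61 and 1.24 FPKM at 10 µM. Irs2, an adaptor of the insulin receptor, had 5.54 and 6.83 FPKM with PBS, 9.60 and 9.35 FPKM at 5 µM, and 7.77 and 7.54 FPKM at 10 µM, and its rise of 0.27 at 10 µM against PBS (adjusted p = 0.0481, limma) was lost in 11 of 15 alternatives, among them the loss of any 1 sample other than PBS replicate 2.

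Among transporters, Slc26a11, a sulfate and anion exchanger, had 10.1 and 11.4 FPKM with PBS, 18.9 and 18.9 FPKM at 5 µM, and 12.5 and 14.3 FPKM at 10 µM, and rose by 0.29 at 10 µM against PBS (SE 0.08, adjusted p = 0.0285, limma), a call lost in 7 of 15 alternatives, among them those without PBS replicate 1, without 10 µM replicate 2 and without either 5 µM sample. No groups of Slc26a11 overlapped, and 10 µM lay between the others. Of the other named members, Aplp2, a relative of the amyloid precursor protein, stood at 74.9 and 80.9 FPKM at 5 µM against 58.0 and 56.3 FPKM with PBS, and Nat8l, which makes N-acetylaspartate, at 3.19 and 3.77 FPKM at 5 µM against 2.04 and 2.63 FPKM with PBS. Tgfbi, a secreted matrix protein induced by TGF-beta, had 87.6 and 80.9 FPKM with PBS, 109 and 103 FPKM at 5 µM, and 73.9 and 75.0 FPKM at 10 µM, and fell by 0.17 at 10 µM against PBS (adjusted p = 0.0494, limma), a call lost in 9 of 15 alternatives, among them the loss of any 1 sample other than PBS replicate 2.

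A group of immune and signalling genes outside the lists was chosen for mention after their values were seen. Il18bp, the secreted inhibitor of interleukin-18, had 32.9 and 31.3 FPKM with PBS, 43.4 and 50.02 FPKM at 5 µM, and 37.0 and 34.2 FPKM at 10 µM. Bcl2a1b, a survival protein of the BCL2 family with near-identical copies in the mouse that may share its fragments, had 35.9 and 44.5 FPKM with PBS, 62.5 and 54.4 FPKM at 5 µM, and 41.7 and 46.4 FPKM at 10 µM. Mknk2, a kinase that phosphorylates the translation factor eIF4E, had 51.8 and 56.5 FPKM with PBS, 67.7 and 66.7 FPKM at 5 µM, and 52.5 and 55.6 FPKM at 10 µM. None of these genes was called at 10 µM against PBS (adjusted p = 0.184, 0.403 and 0.983 in this order, limma). PBS and 10 µM overlapped in Bcl2a1b and Mknk2 and stood apart in Il18bp, with 10 µM between the others.

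Isyna1, Mcee and Paox, metabolic enzymes outside the lists, were also chosen after their values were seen and do not stand for all such enzymes. Isyna1, which makes inositol phosphate from glucose phosphate, had 24.4 and 23.3 FPKM with PBS, 32.8 and 31.2 FPKM at 5 µM, and 21.01 and 22.5 FPKM at 10 µM. Mcee, an enzyme of propionate breakdown, had 14.1 and 15.4 FPKM with PBS, 19.5 and 20.5 FPKM at 5 µM, and 13.5 and 16.1 FPKM at 10 µM. Paox, which oxidises acetylated polyamines, had 4.68 and 5.32 FPKM with PBS, 5.83 and 7.09 FPKM at 5 µM, and 5.30 and 4.62 FPKM at 10 µM. Their differences between 10 µM and PBS were -0.13, 0.00 and -0.01 and none was called (adjusted p = 0.111, 0.993 and 0.952, limma).

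**Figure D5:**
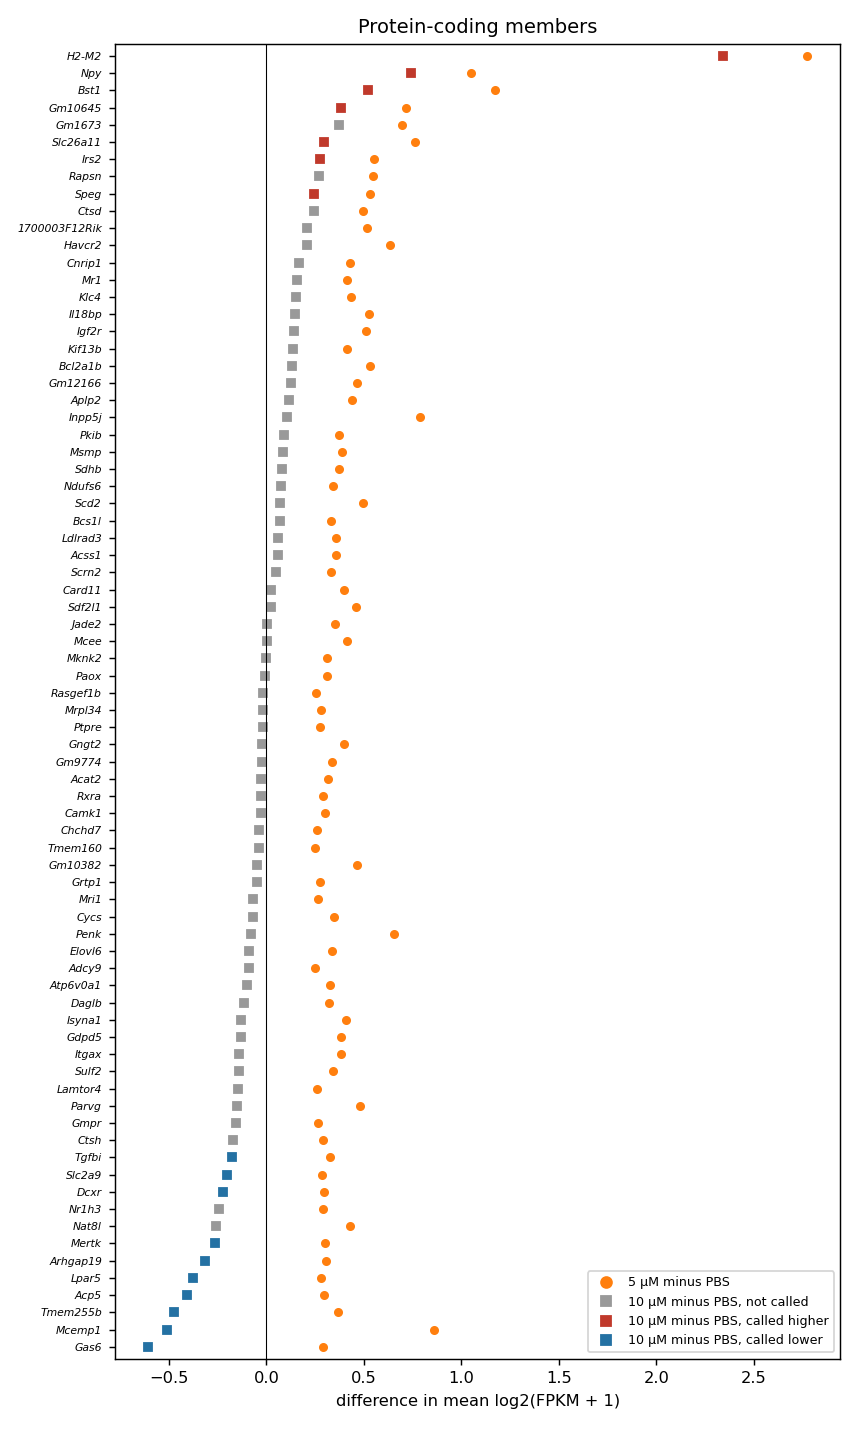
Difference in mean log2(FPKM + 1) of 5 µM from PBS (circles) and of 10 µM from PBS (squares) for 76 of the 77 protein-coding members, ordered by the squares. Circles all lie at or above 0.25 by the rule, while the squares run from 2.34 in H2-M2 to -0.61 in Gas6, 7 of them called higher (red) and 10 called lower (blue). Of all measured protein-coding genes, 30.5% were called higher and 23.3% lower.

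Calls kept in all 15 alternatives were those of Gas6, H2-M2, Npy, Atp6v0c-ps2, Gm14328, Gm29439 and Gm10080, and those of Tmem255b and Gm25600 were kept in the 14 that could be run for them, as neither passed the filter of 5 FPKM. These were 9 of the 31, and no called member changed sign. Among the protein-coding calls not yet described, Arhgap19, a GTPase-activating protein, fell by 0.31 (adjusted p = 0.0135, limma), Dcxr, a sugar reductase, fell by 0.22 (adjusted p = 0.0445, limma), Slc2a9, a urate transporter, fell by 0.20 (adjusted p = 0.0491, limma), and Speg, a kinase of striated muscle, rose by 0.24 (adjusted p = 0.037, limma). Arhgap19 lost its call without PBS replicate 2 and without 10 µM replicate 2, and the others lost theirs in 7 to 9 alternatives. Dcxr and Speg lost theirs with any 1 sample left out other than PBS replicate 2, and Slc2a9 with any 1 of the PBS or 10 µM samples left out.

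The largest difference of all belonged to a pseudogene, Rpl15-ps3, a copy of a ribosomal protein gene. It had 2.96 and 2.12 FPKM with PBS, 65.1 and 23.4 FPKM at 5 µM, and 2.83 and 1.83 FPKM at 10 µM, from 1055 and 399 fragments at 5 µM and at most 49 in the other samples. The 2 samples at 5 µM themselves lay far apart. Its parent gene Rpl15 had 16.02 and 12.3 FPKM with PBS, 13.4 and 13.4 FPKM at 5 µM, and 11.9 and 11.9 FPKM at 10 µM, with no such difference. None of the 8 parent genes found by name for pseudogene members was itself among the 166.

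Fragments of a processed pseudogene and its parent can be exchanged in counting, so such values are uncertain. Rpl36a-ps3 had 2.55 and 2.42 FPKM with PBS, 4.61 and 4.16 FPKM at 5 µM, and 1.93 and 1.43 FPKM at 10 µM. It fell by 0.38 at 10 µM against PBS (adjusted p = 0.029, limma), a call lost in 5 of 14 alternatives, among them those without either PBS sample and without 10 µM replicate 2. Atp6v0c-ps2, named after a proton pump subunit, had 11.03 and 11.4 FPKM with PBS, 22.2 and 18.002 FPKM at 5 µM, and 16.6 and 16.1 FPKM at 10 µM, and rose by 0.51 at 10 µM against PBS (SE 0.10, adjusted p = 0.00732, limma). Its parent Atp6v0c was highest at 10 µM, with 82.2 and 86.1 FPKM, against 65.6 and 66.4 FPKM at 5 µM.

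Long noncoding members were mostly antisense genes at low levels, named here after their values were seen. Gm29439 had 2.77 and 3.12 FPKM with PBS, 6.79 and 9.14 FPKM at 5 µM, and 5.69 and 5.26 FPKM at 10 µM, and rose by 0.71 at 10 µM against PBS (SE 0.13, adjusted p = 0.00667, limma). Gm17122 had 26.5 and 32.4 FPKM with PBS, 40.6 and 43.9 FPKM at 5 µM, and 28.9 and 32.0 FPKM at 10 µM, with PBS and 10 µM overlapping. Gm12841 had 30.9 and 32.3 FPKM with PBS, 48.9 and 48.1 FPKM at 5 µM, and 35.0 and 44.0 FPKM at 10 µM, with all groups apart. Among pseudogenes, Gm14328 had 16.2 and 14.3 FPKM at 5 µM and 11.96 and 11.8 FPKM at 10 µM, against 2.73 and 4.58 FPKM with PBS, and rose by 1.5 at 10 µM against PBS (SE 0.18, adjusted p = 0.0015, limma).

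Of the 18 short RNAs, 10 were miRNA loci, 6 were snRNA and 2 were snoRNA. The libraries report fragments over the precursor locus, not the mature miRNA, and 6 of the 10 loci had mature sequences in RefSeq. The 10 mature sequences of these had 10 distinct seeds, so no seed was shared. Build GRCm38.p6 was used. The sequences of Mir7240, with the largest difference among the short RNAs, of Mir199a-1, the miRNA locus closest to the limit of separation, and of Mir703, with the most fragments of the named loci, are shown in lower case with the seed, bases 2 to 8, in capitals.
mmu-miR-7240-5p: uUGGAGAGgaccgccgucgga
mmu-miR-7240-3p: cGCCGUUGguccucuccaaca
mmu-miR-199a-5p: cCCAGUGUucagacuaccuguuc
mmu-miR-199a-3p: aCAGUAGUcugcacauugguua
mmu-miR-703: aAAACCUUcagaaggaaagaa

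Mir7240 had 0 and 0.609 FPKM with PBS, 3.93 and 3.73 FPKM at 5 µM, and 0 and 0.607 FPKM at 10 µM, which were 6 and 6 fragments at 5 µM and at most 1 elsewhere. Mir199a-1, whose mature miRNAs have been studied in fibrosis and cancer, had 5 and 2 fragments at 5 µM and at most 2 elsewhere. Mir703 had 5.57 and 5.30 FPKM at 5 µM from 16 and 16 fragments, against 3.41 and 3.24 FPKM with PBS from 10 and 10 fragments. At counts of this size a few fragments make the pattern. Mir7240 lies within Mast3 and Mir199a-1 within Dnm2, each on the opposite strand of a gene with far more fragments.

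Overlap of gene spans, introns included, was common in the set, and whether exons overlapped was not examined. A measured gene overlapped 75 of the 166 members (45.2%), against 31.3% of the measured genes, and on the opposite strand 65 (39.2%), against 25.2%. Of the 25 antisense members, 24 overlapped a measured gene. Bst1 overlaps Fbxl5, Igf2r overlaps Airn and Gm29439 overlaps Cd22 in this way. Besides the 3 pairs named above, Gm16379 with Gm16302 and Tmem250-ps with 1810012K08Rik were pairs of overlapping members. By chromosome the share of measured genes in the set ran up to 2.39% on chromosome 6, where 15 of 627 belonged to it, and 2.21% on chromosome 5, with 18 of 814, while none of the 370 measured genes of chromosome X did.

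Beyond the genes described, the lists covered few members. Of 858 measured genes in 47 lists, 19 (2.21%) met the rule, against 1.3% of all measured genes and 0.726% of the protein-coding ones, and 147 members stood in no list. In 31 of the lists, no gene met it.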

How the data were processed

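The authors deposited FPKM values, in 1 table of 54446 entries with a column for each of 6 samples. Reads had been aligned with HISAT2 to build GRCm38, per the submitters' processing notes. Its version, the counter, the annotation, strand use and filters: not given in the sources used here.

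Samples were grouped by the labels. Gene IDs were matched to GENCODE M21 for coordinates, kinds and exon lengths, and sequences came from RefSeq tables of GRCm38.p6. Multiplied by exon length, 98.7% to 98.8% of values of up to 20 fragments were whole multiples of 1 step per sample, within 0.1 fragment. The steps gave the library totals, which the recovered fragments exceed (26.1 to 30.7, in units of 1000000), so the totals set a scale and are not counts in genes. Replicates differed by more than counting noise (median chi-square 1.18 to 1.87, against 0.455).

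Genes with at least 1 FPKM in 2 samples entered limma 3.58.1 in R 4.3.3, on log2(FPKM + 1), which understates changes of low genes. The fit had a 3-level group, an intensity trend, 3 residual degrees of freedom and 2.72 prior ones, two-sided, with Benjamini-Hochberg adjustment over 12722 genes and a threshold of 0.05. The fit was also run on simulated data, which left out the choice of members and so do not test their calls. Python 3.11.15 with pandas 2.3.3 and numpy 2.4.6 did the rest.

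The members and lists were chosen with earlier results of these data known, and the grouping by role was made after the values were seen. Named genes were members without predicted, RIKEN or clone names: the 20 with the largest smaller difference, the 10 with the highest mean FPKM at 5 µM, the 6 called higher and the 6 called lower with the largest change, those at the limits and those in a list. Others are marked in the text or carry a call or overlap described there. Alternatives were a pseudocount of 0.1, no filter, a filter of 5 FPKM, median-of-ratios scaling, quantile normalization, no trend, only the PBS and 10 µM samples, the replicate block, each sample left out, and voom on recovered fragments, which was added after the data were seen. The values of 1 gene covered by this naming are not reported here.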

Additional observations from a re-analysis of the deposited data

Results flagged for a closer look

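A difference of opposite sign at the 2 doses was seen for 32 members: both 10 µM samples lay below both PBS samples, while both 5 µM samples lay above them. The 5 µM side of this contrast is fixed by how the members were chosen, and the difference between the doses was not tested. Among all measured genes, 32.6% had both 10 µM samples below both PBS samples. Those called lower made up 22.0% of measured genes and 8.43% of the members, and nothing is read from these shares. The called ones among them, with the log2 difference of 10 µM from PBS, were Gas6 (-0.61), Mcemp1 (-0.51), Tmem255b (-0.47), 6530413G14Rik (-0.41), Acp5 (-0.41), Rpl36a-ps3 (-0.38), Lpar5 (-0.37), Gm10080 (-0.33), Arhgap19 (-0.31), Mertk (-0.26), Dcxr (-0.22), Ifi30 (-0.22), Slc2a9 (-0.20) and Tgfbi (-0.17).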

How the results depend on the processing

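The number of members, 166, depended on the rule's settings. It was 84 with a filter of 5 FPKM, 255 with a value above 0 in 1 sample and 29 with a difference of at least 0.5, and it ran from 176 to 322 with each sample left out, the highest without 5 µM replicate 1, where 141 of the 166 were shared. Without 5 µM replicate 2 it was 259, with 130 shared. Of the members, 31 were called at 10 µM against PBS. Of all genes tested, 6427 of 12722 were called, and 5988 of 30856 with no filter, 3173 higher and 2815 lower. With a filter of 5 FPKM, 2624 of all 7702 genes were called higher. With only the PBS and 10 µM samples, 3326 of all 12722 were called higher. With any sample left out, fewer of all genes were called in each direction. The count among the members was 13 with no filter. The count of those called higher, 17, was 7 with no filter, 11 with a filter of 5 FPKM, 11 with median-of-ratios scaling, 9 with only the PBS and 10 µM samples, and from 9 to 16 with a sample left out, with 9 without either 5 µM sample, 11 without PBS replicate 1 and 11 without 10 µM replicate 2. The count called lower, 14, was 6 with no filter and from 8 to 12 with a sample left out, lowest without PBS replicate 2 and without 10 µM replicate 1. Apart from the settings named, whose causes were not tested, these counts stayed within 1.5 times their value. That held with voom on recovered fragments, which called 13 members higher and 16 lower. Of all 12717 genes it tested, 3423 were called higher and 3103 lower. Correlations of the deviations of same-numbered samples were 0.037, -0.055 and 0.014, so same-numbered samples did not deviate together. Whether they shared a mouse, culture or batch is not given by the labels, and these values cannot show it. With the replicate block, 25 members were called, 13 higher and 12 lower, and of all 12722 measured genes 3361 higher and 2662 lower. For the named genes, 575 values kept their direction and side of the threshold, 48 lost a call and 9 gained one, and none changed direction while called.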
